A study of Homo sapiens with 12 samples.

Results

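The 42 genes described here encode components and regulators of the epithelial cell state: 12 genes of tight junctions, 4 of apicobasal polarity, 9 of desmosomes and the plakins attached to them, 6 keratins, 5 regulators of epithelial transcription and splicing, 3 genes of a membrane-bound protease system and 3 of cell adhesion. They were taken by symbol from the 60580 genes listed per library, and all 42 were found and tested. The libraries come from HCT116 cells, an established human colorectal cancer cell line, in 4 states. *miR-34a/b/c-KO* cells (*KO* in the following) and *WT* cells were each cultured for 48 h either with the pyrimidine analog 5-FU (4 µM) or with the solvent DMSO. In *KO* cells the regions coding for *miR-34a* and for *miR-34b/c* had been removed by CRISPR-Cas9, and *WT* cells had received the Cas9 plasmid without a guide RNA. Cells of both genotypes had been expanded from single cells. The sources used here do not say whether the replicates of a genotype are different clones, so that p-values measure the spread between these libraries and an effect of the deletion and a difference between clones cannot be told apart.

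Epithelial cells seal the space between them with tight junctions, in which claudins and occludin span the membrane and the zonula occludens proteins and cingulin connect them to actin. Desmosomes anchor the keratin filaments of neighboring cells to each other through desmosomal cadherins, plakoglobin, plakophilins and desmoplakin. The PAR, Crumbs and Scribble complexes separate apical from basolateral membrane. In colorectal cancer cells, loss of these components together with a rise of ZEB, SNAIL or TWIST factors is known as epithelial-mesenchymal transition (EMT), and miR-34 is known to target SNAIL mRNA.

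Total counts per library ranged from 22831415 to 39064210. 1 file, labeled as replicate 1 of the *WT* cells with 5-FU, held for all 60580 genes the same counts as another, labeled as replicate 3 of the *WT* cells with DMSO. It was left out, which leaves 2 libraries of *WT* cells with 5-FU and 3 of each other state. The miR-34 precursor genes had 0 counts in all libraries, *WT* included, and do not check the labels. With regard to tissue, *KRT8*, *KRT18*, *KRT19* and *EPCAM* were expressed at 432 CPM (counts scaled to a library total of 1000000) or more in *WT* cells treated with DMSO, and the intestinal transcription factor *CDX2* at 20.4 CPM, whereas *CDX1* had 0 counts in every library and the colonocyte marker *LGALS4* at most 4. Among markers of other cell types, *PTPRC* reached at most 1 count, *DCN* 1 and *COL1A2* 4, but *COL1A1* was expressed at 25.0 and 48.0 CPM in *WT* and *KO* cells treated with DMSO and at 54.7 and 70.1 CPM after 5-FU. The summed level of the 6 fibroblast markers moved with both factors (22.1 to 27 and 46.5 to 51 CPM in *WT* and *KO* cells with DMSO, 50 to 60.5 and 70.3 to 71.8 CPM with 5-FU), as did that of 5 leukocyte markers with treatment (15.8 to 21.9 CPM with DMSO, 33.8 to 36.8 CPM with 5-FU, nearly all of it *CD68*). The 4 endothelial markers summed to 6.2 to 6.61 CPM in *WT* cells with 5-FU and to 1.28 to 2.06 CPM in the other states, and the 11 markers of colon epithelium to 5150 to 5440 CPM in *WT* and 5350 to 5560 CPM in *KO* cells with DMSO and to 10900 to 12000 CPM in *WT* and 8380 to 8860 CPM in *KO* cells with 5-FU. Most of the sum for colon epithelium came from *KRT8*, *KRT18*, *KRT19* and *EPCAM* (2366, 1382, 1052 and 431.9 CPM on average in *WT* cells with DMSO). These are among the 42 genes, so that this sum is no separate check of them. The part of the marker levels in the results below was not tested. The annotated spans of 12 of the 42 genes overlap a gene on the other strand that had at least 20 counts in a library (*CLDN7*, *TJP3*, *MARVELD3*, *CRB3*, *PPL*, *EVPL*, *KRT8*, *KRT18*, *KRT80*, *ESRP2*, *ELF3* and *SPINT1*), and their values are uncertain where reads were not counted by strand, which the sources used here do not give. In bulk RNA, fewer cells of a type and less RNA per cell cannot be told apart.

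The deleted microRNAs bind mRNAs through bases 2 to 8, the seed, printed here in capitals within the RefSeq sequences of the mature forms (build GRCh38.p14). They are shown because the reverse complement of the *miR-34a* seed was searched for in the 3' UTRs of the epithelial genes. That of the *miR-34b* seed, which is shifted by 1 base, was not searched for. The mature sequence of *miR-34c-5p* was not analysed here.
hsa-miR-34a-5p: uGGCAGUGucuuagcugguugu
hsa-miR-34b-5p: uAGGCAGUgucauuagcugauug
The *miR-34a* site CACTGCC was present in the 3' UTR of 8 of the 42 genes (19.0%; 1 of them, *PKP4*, with the additional A of an 8mer site, 2.38%), next to 2301 of 13089 tested genes with an annotated 3' UTR (17.6%; 8mer sites in 5.88%). The share was thus close to that of all genes. The genes with a site were *CLDN1*, *MARVELD3*, *CRB3*, *PARD6B*, *PKP2*, *PKP4*, *PPL* and *OVOL1*. The sites of 5 genes are printed in mRNA orientation from GRCh38 with the matching bases in capitals. They are the only 8mer and those of the 4 genes that responded to 5-FU in at least 1 genotype at FDR < 0.05 and a fold change above 1.5.
PKP4 (chr2:158681361-158681387, plus strand): taggacacttCACTGCCattttctatt
CLDN1 (chr3:190306944-190306970, minus strand): tcatgtgattCACTGCCttcctctctc
MARVELD3 (chr16:71634847-71634873, plus strand): tagtctgagcCACTGCCtttcccaaga
PARD6B (chr20:50752366-50752392, plus strand): tttctagaaaCACTGCCtacactttat
OVOL1 (chr11:65795694-65795720, plus strand): gctaggatccCACTGCCcccgcctctc
Of the 8 genes with a site, 2 were higher (*PKP4* and *PPL*) and 2 lower (*PARD6B* and *OVOL1*) in *KO* than in *WT* cells treated with DMSO at FDR < 0.05, and 2 were higher (*CLDN1* and *MARVELD3*) and 2 lower (*CRB3* and *PKP2*) with 5-FU. Over all genes tested, 24.5% were higher and 21.9% lower with DMSO, and 21.6% and 28% with 5-FU, so that 2 of 8 (25%) in each direction is near these shares. Compared with DMSO, 7 of the 8 were higher and 0 lower with 5-FU in *WT* cells at FDR < 0.05 (31.9% and 28.3% of all genes). Of the 42 genes, 26 were higher and 4 lower there. In *KO* cells 4 of the 8 were higher and 1 lower (26.6% and 33.8% of all genes). The presence of the letters does not show that a site is used.

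Per kilobase of annotated exons, the simple keratins of intestinal epithelium led the 42 genes in every state. In *WT* cells treated with DMSO, *KRT18* and *KRT19* stood at 450 CPM per kb and *KRT8*, the partner of *KRT18* in keratin filaments, at 344 CPM per kb. They were followed by *EPCAM* (178 CPM per kb), a surface glycoprotein of epithelia, and *CLDN7* (91.8 CPM per kb). The lowest were *KRT20* (3.40 CPM per kb), *KRT23* (0.973 CPM per kb) and *CLDN1* (0.0167 CPM per kb). *CLDN1* was the only one of the 42 with fewer than 20 counts in a library, and the other 41 had at least 30 counts in each. In the color map of all 42 genes, the rows of *CLDN3*, *PARD3*, *KRT20*, *KRT80* and *GRHL2* change color between *WT* and *KO* cells treated with 5-FU.

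**Figure D1:**
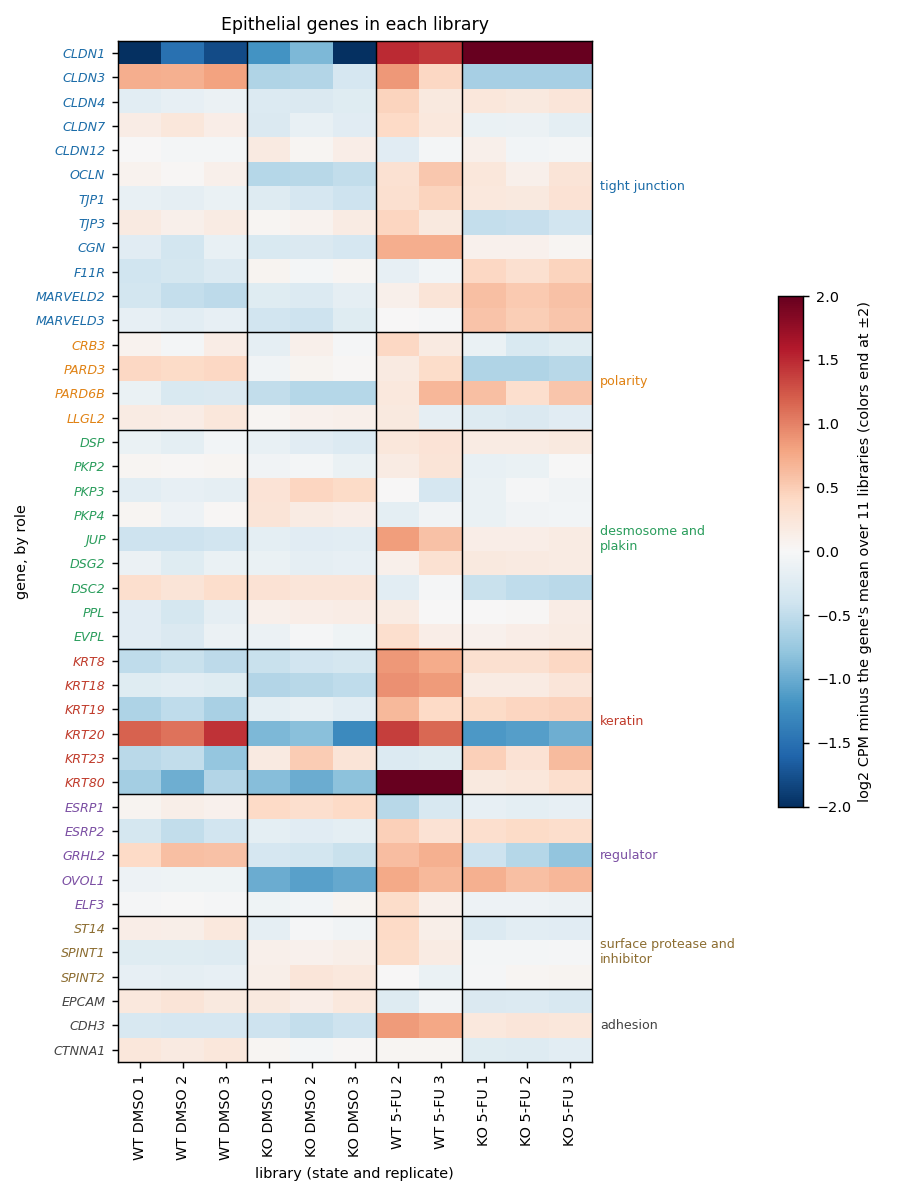
Expression of the 42 genes (rows, grouped by role) in the 11 libraries (columns, by state and replicate), shown as log2 CPM minus the mean of the gene over the libraries. Colors end at 2 log2 units above and below the mean. *CLDN1* is blue in all 6 libraries with DMSO and red in all 5 with 5-FU, and *KRT20* is red in all *WT* and blue in all *KO* libraries.

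Without drug, the epithelial genes that differed most between the genotypes were mainly lower in *KO* cells, while smaller differences went in both directions. At FDR < 0.05 and a fold change above 1.5, 1 of 42 was higher in *KO* than in *WT* cells (2.38%, next to 9.1% of the 16123 genes tested) and 5 were lower (11.9%, next to 4.97% of all genes). The keratin *KRT23* was higher, and *CLDN3*, *OCLN*, *KRT20*, *GRHL2* and *OVOL1* were lower. At FDR < 0.05 without a minimum fold change 12 genes were higher and 12 lower (28.6% each, next to 24.5% and 21.9% of all genes). The libraries of *KO* cells lay all above those of *WT* cells in 14 genes and all below them in 17 (30.1% and 27.4% of all genes). The median log2 fold change of the 42 genes was -0.065, that of all genes 0.026.

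With 5-FU, 2 of the 42 were higher in *KO* than in *WT* cells (*CLDN1* and *KRT23*; 4.76%, next to 7.58% of all genes) and 9 were lower (21.4%, next to 10.6%), namely *CLDN3*, *TJP3*, *CGN*, *PARD3*, *KRT18*, *KRT20*, *KRT80*, *GRHL2* and the P-cadherin gene *CDH3*. Without a minimum fold change, 22 genes were lower and 6 higher at FDR < 0.05 (28% and 21.6% of all genes), and the median was -0.19 on the log2 scale, next to -0.046 for all genes. The *KO* libraries lay all above the *WT* libraries in 6 genes and all below them in 24 (27.9% and 35.1% of all genes). *KRT23* was higher, and *CLDN3*, *KRT20* and *GRHL2* were lower in *KO* cells under both treatments. These 3 are 60% of the genes lower with DMSO and 33.3% of those lower with 5-FU, next to 67% and 31.6% over all genes. In the plot of both differences, 6 of the 9 genes that were lower with 5-FU lie between -0.40 and -0.053 with DMSO, while *CLDN3*, *KRT20* and *GRHL2* keep their place.

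**Figure D2:**
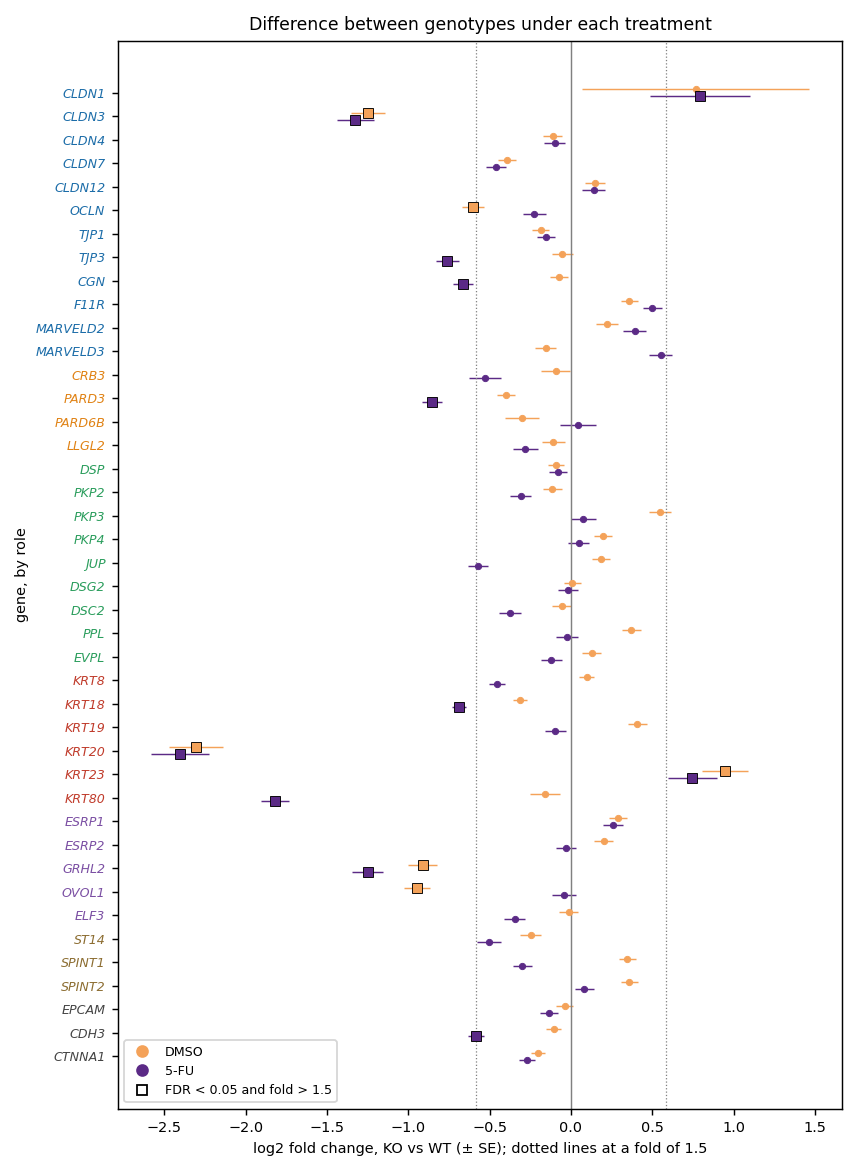
Difference between *KO* and *WT* cells for each of the 42 genes (rows), as log2 fold change with its standard error (bars), with DMSO (orange) and with 5-FU (purple). Squares mark FDR < 0.05 and a fold change above 1.5. The points of *KRT20* lie below -2 under both treatments, and that of *KRT80* lies at -1.82 with 5-FU and at -0.16 with DMSO.

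The response to 5-FU was mainly upward. In *WT* cells, 12 of the 42 genes were higher with 5-FU than with DMSO (28.6%, next to 18.5% of all genes) and 0 were lower (9.38% of all genes), in edgeR as in DESeq2, with 5 lower at an unadjusted p below 0.05. At FDR < 0.05 without a minimum fold change 26 were higher and 4 lower (31.9% and 28.3% of all genes). In *KO* cells, 11 were higher (26.2%, next to 13.3% of all genes) and 2 lower (4.76%, next to 12%), and without a minimum fold change 20 were higher and 11 lower (26.6% and 33.8% of all genes). The libraries with 5-FU lay all above those with DMSO in 29 and all below them in 5 genes in *WT* cells (36.5% and 32.3% of all genes), and in 20 and 14 genes in *KO* cells (30.4% and 38.4%). The median log2 response was 0.30 in *WT* and 0.11 in *KO* cells, next to 0.034 and -0.059 for all genes. *CLDN1*, *MARVELD2*, *PARD6B*, *KRT8*, *KRT18*, *KRT19*, *KRT80*, *OVOL1* and *CDH3* were higher in both genotypes (75% of the 12 in *WT* cells and 81.8% of the 11 in *KO* cells, as against 54.5% and 75.9% of all genes higher in each). *CGN*, *JUP* and *ESRP2* passed in *WT* cells, and *OCLN* and *MARVELD3* in *KO* cells, which is no test of a difference between the genotypes. When 1 factor of unwanted variation was removed with RUVg, a step the study used with settings not given, 0 of the 42 responses were called in either genotype (edgeR, with an unadjusted p below 0.05 for 4 higher and 6 lower in *WT* and 4 higher and 9 lower in *KO* cells). This factor followed the treatment (98.2% of its variance lay between DMSO and 5-FU), so that it could not be told apart from the response. The signs of single responses with RUVg, given below, therefore do not test these responses.

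The difference of the responses themselves, the interaction of genotype and treatment, was tested for all 42 genes. The response of 2 genes was higher in *KO* than in *WT* cells (*MARVELD3* and *OVOL1*; 4.76%, next to 3.42% of all genes) and that of 5 was lower (*TJP3*, *CGN*, *JUP*, *KRT80* and *SPINT1*; 11.9%, next to 6.66%). At FDR < 0.05 without a minimum fold change 3 were higher and 17 lower (10.1% and 16% of all genes). The count of 5 rested on *WT* cells treated with 5-FU, of which there were 2 libraries: it was 2 without replicate 2 and 8 without replicate 3. With a fold change of 1.5 built into the test, 0 genes remained higher (2 at an unadjusted p below 0.05, edgeR) and 1, *KRT80*, lower.

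**Figure D3:**
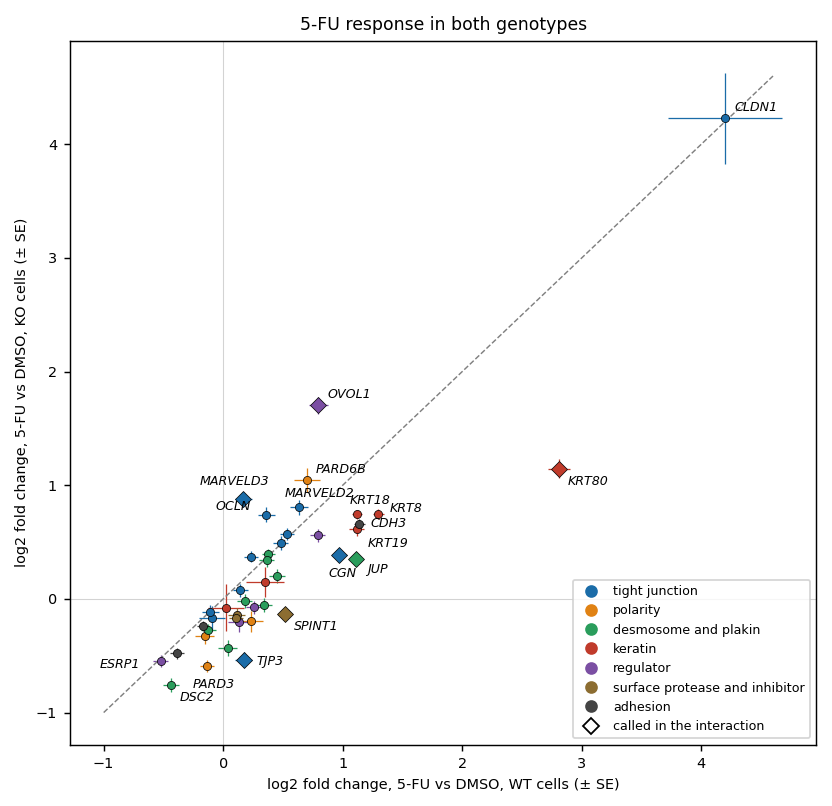
Response to 5-FU in *WT* cells (horizontal axis) and in *KO* cells (vertical axis) as log2 fold change with standard errors (bars), 1 point per gene colored by role, with the line of equal response dashed. Diamonds mark the 7 genes that passed in the interaction. *KRT80* lies farthest below the line (2.81 in *WT* and 1.15 in *KO* cells) and *OVOL1* farthest above it (0.80 and 1.70).

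Among the tight junction genes, the claudins that form the strands behaved differently from each other. *CLDN3* (chr7:73768997-73770270 in GRCh38), a barrier-forming claudin, was expressed at 37.9, 37.2 and 39.8 CPM in the libraries of *WT* cells treated with DMSO and at 14.9, 15.2 and 18.1 CPM in those of *KO* cells, in the order of the replicates. With 5-FU, it was expressed at 41.4 and 30.2 CPM in *WT* and at 14.3, 14.3 and 14.3 CPM in *KO* cells. All *KO* libraries lay below all *WT* libraries, with and without drug. *KO* cells thus had 2.38-fold less *CLDN3* with DMSO (log2 fold change -1.25 ± 0.10, FDR = 7.53e-08) and 2.51-fold less with 5-FU (-1.33 ± 0.11, FDR = 1.16e-07), and the response to 5-FU did not pass (-0.094 ± 0.11 in *WT* and -0.17 ± 0.11 in *KO* cells). *CLDN7*, a claudin of the basolateral membrane, was lower in *KO* cells by a smaller step (-0.39 with DMSO and -0.46 with 5-FU, FDR = 3.62e-05 and 1.82e-05). *CLDN4* and *CLDN12* did not pass between the genotypes at FDR < 0.05.

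*CLDN1* (chr3:190305707-190322446), which encodes claudin-1, was close to silent without drug. It had 1, 2 and 2 counts in the *WT* and 3, 4 and 1 counts in the *KO* libraries treated with DMSO, and 46 and 33 counts in the *WT* and 51, 58 and 45 counts in the *KO* libraries treated with 5-FU. Every library with 5-FU lay above every library with DMSO, in either genotype. In *WT* cells, where no DMSO library exceeded 3 counts, the level was at least 10.6-fold higher with 5-FU (computed against 3 counts per library). In *KO* cells the pooled counts rose from 8 to 154, a ratio of 19.7 after scaling (9.74 to 46.4, 95% interval of counting error alone). Under 5-FU *CLDN1* was 1.73-fold higher in *KO* than in *WT* cells (log2 fold change 0.79 ± 0.31, FDR = 0.0418). This call was lost when any 1 of the 5 libraries with 5-FU was left out (FDR = 0.0652 to 0.13) and in DESeq2 (FDR = 0.0702).

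The membrane proteins of the MARVEL family, which span tight junctions next to the claudins, were higher with 5-FU in both genotypes at FDR < 0.05. *OCLN*, the gene of occludin, was lower in *KO* cells without drug (40.7 ± 1.18 CPM, as against 61.8 ± 1.48 CPM in *WT* cells, SD, n = 3 each; log2 fold change -0.60 ± 0.066, FDR = 1.72e-06) and rose with 5-FU in *KO* cells to 68.0 ± 3.90 CPM (0.74 ± 0.066, FDR = 6.96e-08). With RUVg, the difference of *OCLN* with DMSO was -0.27 and not called (FDR = 0.315, edgeR), and it was not called with the fold change of 1.5 built into the test. *MARVELD2*, which encodes tricellulin of the contacts between 3 cells, rose by 0.64 in *WT* and 0.80 in *KO* cells on the log2 scale. Without replicate 3 of the *WT* cells with 5-FU, the increase in *WT* cells was 0.56 and no longer passed. *MARVELD3* was measured at 31.9, 30.9 and 31.9 CPM in *WT* and 27.4, 27.0 and 30.4 CPM in *KO* cells with DMSO, and at 35.9 and 35.1 CPM in *WT* and 53.0, 50.5 and 52.6 CPM in *KO* cells with 5-FU. The *KO* libraries were thus below the *WT* libraries without drug and above them with 5-FU. The difference of *MARVELD3* without drug did not pass (-0.16 ± 0.065, FDR = 0.0607). That with 5-FU was below a fold change of 1.5 (0.55 ± 0.07, FDR = 8.88e-06). The response was 0.17 ± 0.07 in *WT* and 0.88 ± 0.064, FDR = 6.45e-09 in *KO* cells, and the difference between these was 0.71 ± 0.10, FDR = 6.73e-05.

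Of the cytoplasmic plaque genes, *TJP3* and *CGN* were lower in *KO* than in *WT* cells with 5-FU. *TJP3*, the gene of zonula occludens protein ZO-3, was expressed at 66.1, 63.0 and 65.4 CPM (*WT*) and 60.5, 61.2 and 65.8 CPM (*KO*) with DMSO, ranges that overlap. With 5-FU it was expressed at 79.1 and 66.8 CPM in *WT* and at 42, 42.6 and 44.7 CPM in *KO* cells. The 3 *KO* libraries with 5-FU were the lowest of all 11. The response was 0.17 ± 0.07 in *WT* and -0.54 ± 0.066, FDR = 2.74e-06 in *KO* cells, a difference of -0.71 ± 0.10, FDR = 6.92e-05. The latter was not called with RUVg (-0.47, FDR = 0.0507, edgeR) or without replicate 2 of the *WT* cells with 5-FU (-0.58). Cingulin (*CGN*), an adaptor between tight junctions and the actomyosin cytoskeleton, rose in *WT* cells from 49.2, 44.9 and 52.1 to 95.7 and 95.8 CPM, but reached only 61.5, 61.0 and 59.1 CPM in *KO* cells, from 46.4, 47.2 and 45.6 CPM. The 2 *WT* libraries with 5-FU stood apart from all others. The response was 0.97 ± 0.061, FDR = 1.17e-09 in *WT* and 0.38 ± 0.058 in *KO* cells, and the difference of -0.59 ± 0.085, FDR = 0.00012 lay at the minimum fold change: it was not called with TMM factors (-0.53), without a filter, with RUVg (-0.46), in DESeq2 or after leaving out any of 4 single libraries. With RUVg, the response of *CGN* in *WT* cells had the opposite sign (-0.14). *TJP1* (ZO-1) was higher with 5-FU by 0.54 in *WT* and 0.57 in *KO* cells (FDR = 5.49e-07 and 8.87e-08), below a fold change of 1.5. The junctional adhesion molecule gene *F11R* was higher in *KO* cells with DMSO (0.36, FDR = 3.92e-05) and with 5-FU (0.50, FDR = 3.93e-06).

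The values of the members that differed most in each role are plotted per library.

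**Figure D4:**
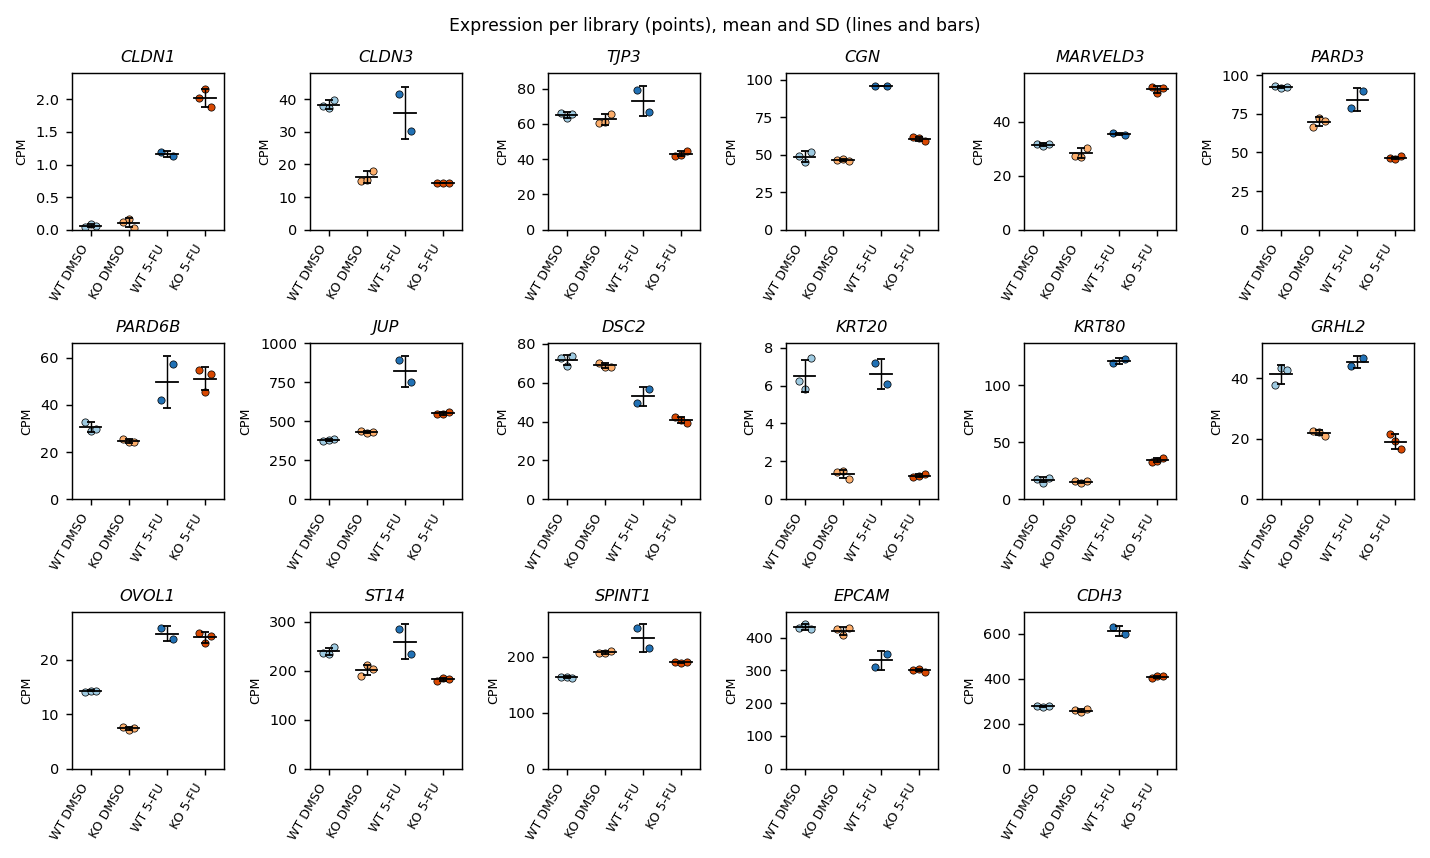
CPM per library (points) of 17 epithelial genes in the 4 states, with the mean (line) and SD (bar) of 3 libraries, or 2 for *WT* cells treated with 5-FU. Each vertical axis starts at 0. *KRT80*, *JUP*, *CGN* and *CDH3* are highest in the *WT* libraries with 5-FU, while *CLDN3*, *KRT20* and *GRHL2* separate the genotypes at either treatment.

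Of the 4 polarity genes, *PARD3* and *PARD6B*, which encode subunits of the apical PAR complex, went in opposite directions with 5-FU in *KO* cells. *PARD3* was measured at 92.9, 91.3 and 92.5 CPM in *WT* and 66.6, 72.5 and 70.5 CPM in *KO* cells with DMSO. With 5-FU, it was measured at 78.7 and 89.5 CPM in *WT* and 46.1, 45.8 and 47.4 CPM in *KO* cells. At either treatment every *KO* library was below every *WT* library, and the lowest were those of *KO* cells with 5-FU. The difference between genotypes was -0.40 ± 0.055 with DMSO and -0.86 ± 0.061, FDR = 1.71e-08 with 5-FU, and the decrease with 5-FU in *KO* cells was -0.59 ± 0.057, FDR = 1.73e-07. The latter was just over the minimum fold change, was not called with TMM factors (-0.55), without a filter, in DESeq2 or after leaving out any of 3 single libraries, and had the opposite sign with RUVg (0.38). *PARD6B* rose from 32.9, 29.1 and 29.6 to 42.1 and 57.5 CPM in *WT* and from 25.6, 24.3 and 24.4 to 54.7, 45.5 and 53.2 CPM in *KO* cells (0.70 ± 0.11, FDR = 4.47e-05 and 1.04 ± 0.10, FDR = 2.57e-07). The libraries of the genotypes overlapped with 5-FU, and the *WT* libraries with 5-FU were far apart: without replicate 3 the response in *WT* cells was 0.46 and was not called. The Crumbs gene *CRB3* was lower in *KO* cells with 5-FU (-0.53 ± 0.10, FDR = 0.000367), and *LLGL2*, a basolateral polarity gene, fell with 5-FU in *KO* cells (-0.33 ± 0.07, FDR = 0.000739), both below a fold change of 1.5.

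Of the 9 desmosome and plakin genes, 0 passed FDR < 0.05 and a fold change of 1.5 between the genotypes in edgeR as in DESeq2 (5 with DMSO and 3 with 5-FU had an unadjusted p below 0.05; 9.1% and 4.97% of all genes were higher and lower with DMSO, 7.58% and 10.6% with 5-FU). At FDR < 0.05 alone 4 were higher in *KO* cells with DMSO (24.5% of all genes) and 3 lower with 5-FU (28% of all genes). *JUP*, the gene of plakoglobin, which links desmosomal cadherins to desmoplakin, had the highest response of the 9 in *WT* cells. It was expressed at 376, 378 and 386 CPM in *WT* and 438, 426 and 432 CPM in *KO* cells with DMSO, and at 891 and 749.9 CPM in *WT* and 546, 546 and 561 CPM in *KO* cells with 5-FU. The *WT* libraries were below those of *KO* cells without drug and above them with 5-FU. *JUP* thus increased 2.16-fold in *WT* cells (log2 fold change 1.11 ± 0.061, FDR = 2.12e-10) and 1.28-fold in *KO* cells (0.35 ± 0.056, FDR = 4.21e-05), and the responses differed by -0.76 ± 0.083, FDR = 8.38e-06. With 5-FU *JUP* was 1.49-fold lower in *KO* than in *WT* cells (-0.57 ± 0.061, FDR = 1.34e-06), just below the minimum fold change, and this difference was called with RUVg (-0.65) and without replicate 3 of the *WT* (-0.69) or of the *KO* cells with 5-FU (-0.59). With RUVg, whose factor followed the treatment, the increase in *WT* cells had the opposite sign (-0.56), which does not test it. The difference of the responses was -0.56 with RUVg and not called.

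*DSC2*, a desmosomal cadherin, was the only desmosomal gene with a called decrease. It was measured at 72.7, 68.7 and 73.7 CPM in *WT* and 70.4, 68.1 and 68.4 CPM in *KO* cells with DMSO, which overlap, and at 49.5 and 56.6 and 42.3, 40.6 and 39.4 CPM with 5-FU. All libraries with 5-FU were below all with DMSO. The decrease was -0.44 ± 0.066 in *WT* cells (FDR = 2.68e-05, below a fold change of 1.5) and -0.76 ± 0.06, FDR = 1.83e-08 in *KO* cells, of which the latter had the opposite sign with RUVg (0.17). The other desmosomal cadherin among the 42 genes, *DSG2*, and the plakin desmoplakin (*DSP*) rose by 0.36 and 0.38 in *WT* and by 0.34 and 0.39 in *KO* cells at FDR < 0.05. *DSC3*, a desmosomal cadherin outside the 42 genes, was also higher with 5-FU. It was at 18.7 CPM in *WT* and 13.9 CPM in *KO* cells with DMSO, and at 39.4 and 38.5 CPM with 5-FU. The plakophilin *PKP3* was 1.46-fold higher in *KO* cells with DMSO (158 ± 8.22 as against 108 ± 1.53 CPM, SD, n = 3 each, FDR = 9.12e-06), and *PPL*, the gene of periplakin, 1.29-fold (FDR = 9.54e-05). With 5-FU neither passed FDR < 0.05 between the genotypes. The envoplakin gene *EVPL* was higher with 5-FU in both genotypes at FDR < 0.05 (0.45 and 0.20). *PKP2* and *PKP4* moved by at most 0.31 on the log2 scale between states.

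The keratins had the highest median response of the 7 roles in *WT* cells, 1.12 on the log2 scale, next to 0.68 in *KO* cells. *KRT8* rose from 2366 ± 73.9 to 5817 ± 392 CPM in *WT* cells (SD, n = 3 with DMSO and 2 with 5-FU) and from 2527 ± 85.1 to 4243 ± 155 CPM (n = 3 each) in *KO* cells, and its partner *KRT18* from 1382 ± 18.4 to 2999 ± 99.8 CPM and from 1112 ± 30.2 to 1860 ± 54.4 CPM. *KRT19* rose from 1052 ± 58.5 to 2281 ± 278 CPM in *WT* and from 1396 ± 38.0 to 2135 ± 57.6 CPM in *KO* cells. In all 3, no library with 5-FU overlapped with the libraries of the same genotype with DMSO. The responses were 1.30, 1.12 and 1.12 in *WT* and 0.75, 0.74 and 0.61 in *KO* cells (FDR = 1.9e-12, 3.92e-12 and 3.03e-10, and 4.45e-10, 1.54e-10 and 1.32e-07). They were lower in *KO* cells by -0.55 ± 0.066, -0.38 ± 0.06 and -0.50 ± 0.086 (FDR = 2.08e-05, 0.000304 and 0.000531), differences below a fold change of 1.5. Only *KRT18* was also called between the genotypes with 5-FU (-0.69 ± 0.044, FDR = 4.72e-09). With RUVg, the response of *KRT19* had the opposite sign in both genotypes (-0.035 in *WT* and -0.40 in *KO* cells). *KRT8* and *KRT18* lie next to each other on chromosome 12 on opposite strands and their annotated spans overlap. Reads of the overlap may have gone to either gene. The pseudogenes listed for them had at most 183 counts in sum per library for *KRT8* (50 pseudogenes) and 42 for *KRT18* (67 pseudogenes), as against at least 55546 and 25900 counts for the genes.

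*KRT80* (chr12:52168996-52192014), a type II keratin found near desmosomes, had the largest response of the 6 keratins among the 42 genes and the largest interaction of all 42 genes. It was expressed at 17.9, 14.6 and 19.0 CPM in *WT* and 15.8, 14.3 and 16.2 CPM in *KO* cells with DMSO. With 5-FU, it reached 119 and 123 CPM in *WT* and 32.7, 33.8 and 36.3 CPM in *KO* cells. Without drug the genotypes overlapped, whereas with 5-FU they were far apart. The increase was 7.01-fold in *WT* cells (2.81 ± 0.089, FDR = 2.87e-13) and 2.21-fold in *KO* cells (1.15 ± 0.087, FDR = 1.07e-08), and the responses differed by -1.66 ± 0.12, FDR = 2.38e-07. The difference was called in each of the 7 other fits of all libraries, RUVg and DESeq2 included (-1.68 to -1.58), and after leaving out each library (-1.74 to -1.57).

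*KRT20*, a marker of differentiated intestinal cells, differed between the genotypes, and its responses to 5-FU did not pass. Its level was 6.25, 5.82 and 7.47 CPM in *WT* and 1.42, 1.49 and 1.09 CPM in *KO* cells with DMSO, and 7.18 and 6.07 CPM in *WT* and 1.19, 1.23 and 1.34 CPM in *KO* cells with 5-FU. Every *KO* library was below 2 CPM and every *WT* library above 5 CPM. *KO* cells thus had 4.95-fold less with DMSO (-2.31 ± 0.17, FDR = 1.56e-08) and 5.3-fold less with 5-FU (-2.41 ± 0.18, FDR = 2.37e-08), which were the largest differences between the genotypes among the 42 genes. Of the 11 markers of colon epithelium, 9 were tested, *KRT20* included. In *KO* cells, 3 were lower and 0 higher with DMSO (1 higher at FDR < 0.05 alone), and 3 lower and 2 higher with 5-FU. Over all genes these shares were 4.97% and 9.1%, and 10.6% and 7.58%. In the interaction 1 was higher and 1 lower (3.42% and 6.66% of all genes), with values from -1.69 to 4.27. *KRT23*, a type I keratin, was higher in *KO* cells with DMSO (5.43 ± 0.655 as against 2.83 ± 0.299 CPM, SD, n = 3 each; 0.95 ± 0.14, FDR = 5.16e-05) and with 5-FU (0.75 ± 0.15, FDR = 0.000714). The difference with DMSO was not called with RUVg (1.25, FDR = 0.0732, edgeR).

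Among the regulators, *GRHL2* and *OVOL1*, which encode transcription factors of epithelial cells, were both lower in *KO* cells without drug. *GRHL2* (chr8:101492439-101669726) was measured at 37.8, 43.3 and 42.8 CPM in *WT* and 22.6, 22.2 and 21.1 CPM in *KO* cells with DMSO, and at 44.1 and 46.8 CPM in *WT* and 21.5, 19.2 and 16.5 CPM in *KO* cells with 5-FU. Each *KO* library was below each *WT* library at either treatment. The difference was -0.91 ± 0.087, FDR = 3.6e-07 with DMSO and -1.25 ± 0.095, FDR = 3.1e-08 with 5-FU, and the response to 5-FU did not pass in either genotype. *OVOL1* was measured at 14.2, 14.3 and 14.3 CPM in *WT* and 7.60, 7.11 and 7.47 CPM in *KO* cells with DMSO. With 5-FU, it was measured at 25.7 and 23.8 CPM in *WT* and at 25.0, 23.1 and 24.3 CPM in *KO* cells. The genotypes, which were separate without drug, overlapped with 5-FU. The difference was -0.95 ± 0.078, FDR = 6.89e-08 with DMSO and -0.041 ± 0.074 with 5-FU, so that the response in *KO* cells (1.70 ± 0.076, FDR = 1.35e-11) exceeded that in *WT* cells (0.80 ± 0.075, FDR = 1.57e-07) by 0.91 ± 0.11, FDR = 2.08e-05.

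The epithelial splicing regulators *ESRP1* and *ESRP2*, which favor epithelial exon choice, went apart with 5-FU. *ESRP1* fell by -0.52 ± 0.063 in *WT* and -0.55 ± 0.055 in *KO* cells (FDR = 2.38e-06 and 3.17e-07, below a fold change of 1.5), and *ESRP2* rose by 0.79 ± 0.063, FDR = 1.8e-08 in *WT* cells and by 0.56 ± 0.057, FDR = 3.67e-07 in *KO* cells, of which the second was below a fold change of 1.5 and the first had the opposite sign with RUVg (-1.15). *ESRP1* was slightly higher in *KO* cells with DMSO (0.29 ± 0.055, FDR = 0.000479). This was also the case for its neighbors on chromosome 8: of the 20 tested genes on each side, 36 of 40 were higher in *KO* cells with DMSO and the median was 0.39, whereas the neighbors of *GRHL2* on the same chromosome had a median of -0.018. For the other 40 genes, the median of the neighbors was between -0.12 and 0.17 with DMSO. With 5-FU it was 0.37 for *ESRP1* and ranged from -0.27 (*PKP3*) to 0.22 (*TJP1*) for the others. The part of chromosomal position in the difference of *ESRP1* was not tested. *ELF3*, an ETS factor of epithelia, was lower in *KO* cells with 5-FU (-0.34 ± 0.065, FDR = 0.000372), below a fold change of 1.5.

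Repressors of epithelial genes and mesenchymal markers were examined beside them. Of 10 EMT regulators and markers, 7 were tested, of which 2 were higher (*ZEB1* and *VIM*; 9.1% of all genes with DMSO and 7.58% with 5-FU) and 1 lower (*FN1*; 4.97% and 10.6%) in *KO* cells, at either treatment. *ZEB1*, a repressor of junction genes, was expressed at 2.11 ± 0.396 CPM in *WT* and 6.84 ± 0.745 CPM in *KO* cells with DMSO (SD, n = 3 each; 1.70 ± 0.16, FDR = 2.98e-07), and at 1.5 and 4.91 CPM with 5-FU (1.72 ± 0.19, FDR = 2.06e-06). *VIM*, the gene of the mesenchymal filament protein vimentin, was at 2.37 ± 0.106 and 12.3 ± 1.18 CPM with DMSO (2.37 ± 0.12, FDR = 1.79e-10). With 5-FU the largest difference of the 7 genes was 1.72, so that the difference of *VIM* was smaller there than with DMSO. In the interaction 2 of the 7 were lower at a fold change above 1.5 (6.66% of all genes). At FDR < 0.05 alone 1 was higher and 2 lower there (10.1% and 16% of all genes). *FN1* (fibronectin) was lower in *KO* cells with DMSO (-0.70 ± 0.10, FDR = 3.87e-05) and with 5-FU (-1.69 ± 0.10, FDR = 3.09e-09). *ZEB2* had at most 1 count per library. *SNAI1* did not pass between the genotypes with DMSO (-0.089 ± 0.10, FDR = 0.503). With 5-FU it was higher in *KO* (7.08 ± 0.676 CPM, n = 3) than in *WT* cells (5.54 ± 0.372 CPM, SD, n = 2) at FDR < 0.05, below a fold change of 1.5 (0.35 ± 0.12, FDR = 0.0209), and the libraries did not overlap. *TWIST1* did not pass with DMSO (-0.017 ± 0.15, FDR = 0.943). *SNAI2* increased with 5-FU in *WT* (3.29 ± 0.51, FDR = 3.35e-05) and *KO* cells (4.24 ± 0.51, FDR = 2.52e-06), from at most 9 counts per library to at least 49.

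The promoters of the epithelial genes were searched on both strands for CACCTG, the E-box bound by ZEB and SNAIL repressors, and for AACCGG, which is contained in the motif of grainyhead-like factors such as GRHL2. For 21 of the 42 genes a promoter (250 bases before to 50 bases after the RefSeq start, GRCh38.p14) was given. CACCTG or its complement was found in 9 of these (42.9%, next to 19.4% of 11177 promoters of tested genes), and AACCGG or its complement in 4 (19.0%, next to 10.5%). The E-box was present in 4 of the 6 listed promoters of genes lower in *KO* cells with DMSO at FDR < 0.05, in 0 of the 4 of genes higher there, and in 5 of the 11 of the other genes. The 4 of genes lower in *KO* cells are printed in the direction of transcription with the E-box in capitals, as examples of the word beside genes that differed.
CLDN3 (chr7:73770221-73770246, minus strand): caaagccacaggCAGGTGcaggcgca
OCLN (chr5:69492502-69492531, plus strand): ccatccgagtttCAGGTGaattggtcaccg
TJP1 (chr15:29969120-29969149, minus strand): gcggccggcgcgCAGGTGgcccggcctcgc
KRT20 (chr17:40885193-40885222, minus strand): atcctgaagctaCAGGTGctccctcctgga
A match of 6 letters is a description and does not show binding of a factor.

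The 3 genes of the matriptase system, a membrane protease and its inhibitors, differed by less than a fold of 1.5 between genotypes and between treatments in the edgeR fit of all libraries. The protease gene *ST14* was expressed at 237, 234 and 248 CPM in *WT* and 189.9, 211 and 205 CPM in *KO* cells with DMSO, and at 285 and 234 and 179, 186 and 184 CPM with 5-FU. The *KO* libraries lay below the *WT* libraries at either treatment (-0.25 ± 0.065, FDR = 0.0052 with DMSO and -0.51 ± 0.072, FDR = 2.79e-05 with 5-FU). The inhibitor gene *SPINT1* was measured at 164, 164 and 161 CPM in *WT* and 207, 206 and 210.0 CPM in *KO* cells with DMSO, and at 251 and 216 and 189, 189 and 190.0 CPM with 5-FU. The order of the genotypes was reversed by the drug: *KO* libraries were above those of *WT* cells without it and below them with it. The responses were 0.52 ± 0.058, FDR = 1.09e-06 in *WT* and -0.13 ± 0.053, FDR = 0.0425 in *KO* cells and differed by -0.65 ± 0.078, FDR = 2.35e-05. This difference was not called with RUVg (-0.48), in DESeq2 (-0.57) or without replicate 2 of the *WT* cells treated with 5-FU. The other inhibitor gene, *SPINT2*, was higher in *KO* cells with DMSO (0.36 ± 0.052, FDR = 3.6e-05) and did not pass with 5-FU (0.08 ± 0.058).

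Of the adhesion genes, *CDH3*, the gene of P-cadherin, increased with 5-FU. Its level was 280.1, 276 and 278 CPM in *WT* and 262, 251 and 263 CPM in *KO* cells with DMSO. With 5-FU, the level was 629 and 597 CPM in *WT* and 402, 413 and 409.8 CPM in *KO* cells. All libraries with 5-FU were above all with DMSO, and the *WT* libraries were the highest. The increase was 2.2-fold in *WT* (1.14 ± 0.05, FDR = 1.26e-11) and 1.58-fold in *KO* cells (0.66 ± 0.045, FDR = 2.98e-09). The difference between the genotypes with 5-FU (-0.59 ± 0.05, FDR = 1.06e-07) lay at the minimum fold change and was not called with TMM factors (-0.54), without a filter, in DESeq2 or without replicate 2 of the *WT* or replicate 1 of the *KO* cells with 5-FU. *EPCAM* was measured at 428, 443 and 425 CPM in *WT* and 426, 407 and 428 CPM in *KO* cells with DMSO, and at 310.3 and 351 and 302, 305 and 296 CPM with 5-FU. It was lower in all libraries with 5-FU, by -0.39 in *WT* and -0.48 in *KO* cells (FDR = 2.76e-05 and 6.67e-07), below a fold change of 1.5. *CTNNA1*, which encodes an actin-binding catenin, was lower in *KO* cells with DMSO (-0.20 ± 0.044, FDR = 0.00138) and with 5-FU (-0.27 ± 0.049, FDR = 0.000264).

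Other genes of junctions and polarity were counted as well. Of 33 further junction genes 25 were tested, of which 2 were higher and 1 lower in *KO* cells with DMSO (9.1% and 4.97% of all genes) and 3 higher and 2 lower with 5-FU (7.58% and 10.6%). At FDR < 0.05 alone, 6 were higher and 10 lower in *KO* cells with 5-FU (21.6% and 28% of all genes). With 5-FU, 9 were higher and 4 lower than with DMSO in *WT* cells (18.5% and 9.38% of all genes) and 6 and 5 in *KO* cells (13.3% and 12%). The largest of the differences without drug were those of *NECTIN3*, an immunoglobulin-like adhesion gene (42 ± 1.49 CPM in *WT* and 185 ± 6.97 CPM in *KO* cells, SD, n = 3 each; 2.14 ± 0.066, FDR = 7.72e-13), of *CLDN9* (-2.17 ± 0.58, FDR = 0.00614) and of *CLDN2*, a claudin that forms cation pores (1.56 ± 0.15, FDR = 6.2e-07). The value of *CLDN9* rests on few reads, with 5 to 17 counts per library in *WT* and 1 to 5 in *KO* cells with DMSO. The scaffold gene *MAGI1* was the only 1 with an interaction (-0.73 ± 0.12, FDR = 0.000435), next to 6.66% of all genes lower there. Of 20 further polarity genes 17 were tested. *DLG5* was higher (0.66 ± 0.058, FDR = 1.39e-07) and the basolateral scaffold gene *SCRIB* lower (-0.64 ± 0.075, FDR = 3.79e-06) in *KO* cells with DMSO. These were the only calls of the 17 there, next to 9.1% higher and 4.97% lower of all genes. With 5-FU, *SCRIB* was at 427 ± 71.7 CPM in *WT* (SD, n = 2) and 272 ± 8.5 CPM in *KO* cells (n = 3). The genes beside *SCRIB* were not examined, and the part of chromosomal position in its difference was not tested. In the interaction 0 of the 17 were called (edgeR, 6 with an unadjusted p below 0.05), next to 3.42% higher and 6.66% lower of all genes.

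Of 20 further epithelial regulators 16 were tested, of which 1 was higher and 3 lower in *KO* cells with DMSO (9.1% and 4.97% of all genes), and 3 were higher and 1 lower in the interaction (3.42% and 6.66%). *GRHL3*, a relative of *GRHL2*, was lower in *KO* cells without drug (-1.31 ± 0.30, FDR = 0.002) and rose with 5-FU from 1.16 to 11.3 CPM in *WT* and from 0.469 to 15.2 CPM in *KO* cells (interaction 1.74 ± 0.34, FDR = 0.00135). *GRHL1* and *TFCP2L1* of the same superfamily were higher with 5-FU in *KO* cells (0.43 ± 0.11, FDR = 0.00295 and 0.73 ± 0.081, FDR = 8.22e-07) at FDR < 0.05, the responses in *WT* cells did not pass (-0.25 ± 0.12 and -0.041 ± 0.09), and the responses differed between the genotypes (0.69 ± 0.17, FDR = 0.00643 and 0.77 ± 0.12, FDR = 0.000258). The intestinal factor *HNF4A* was lower in *KO* cells with DMSO (-1.26 ± 0.31, FDR = 0.00345) and its response to 5-FU was lower as well (-1.69 ± 0.50, FDR = 0.0208). *KLF4* was lower (-0.87 ± 0.08, FDR = 2.43e-07) and *FOXA1* higher (0.87 ± 0.15, FDR = 0.000174) in *KO* cells with DMSO.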

How the data were processed

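Total RNA of the 4 states was sequenced by the authors as random-primed, paired-end libraries, aligned in CLC Genomics Workbench (GRCh38, ENSEMBL annotation). The deposited values are raw counts per gene symbol, whole numbers without normalization. States were assigned by sample titles. 1 library, identical to another, was left out. The 16123 genes that reached 20 counts in any library were fitted with edgeR 4.0.16 (R 4.3.3; quasi-likelihood, glmQLFit and glmQLFTest, two-sided), with upper-quartile factors (0.955 to 1.05) and 1 mean per state over 11 libraries. The biological coefficient of variation was 6.72%. FDR is the Benjamini-Hochberg adjusted p over all genes tested. A call required FDR < 0.05 and a fold change above 1.5. Standard errors were taken as the log2 fold change divided by the square root of the F statistic. CPM are the counts divided by the scaled library total, with a prior count of 2 on the log2 scale. The fit was tested on simulated data. Annotation was GENCODE release 44, and the microRNA and promoter sequences were from RefSeq. The 3' UTRs were those of the canonical transcripts. Alternatives were TMM factors, other filters and fold limits, RUVg (1 factor, computed from the 11123 genes with the highest p over the 4 states), a replicate block, DESeq2 1.42.0 and leaving out each library.

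The 42 genes and the lists of other genes were chosen with earlier results of these data known. Values in every library are given for the 2 genes of each role with the largest summed absolute fold changes and for each gene called in the interaction. From the lists of other junction, polarity, keratin, regulator and surface protease genes, those called between genotypes with DMSO or in the interaction are named (at most 5 each). EMT regulators and markers are named beside them. The called genes of the cell type marker lists are not all named.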

Additional observations from a re-analysis of the deposited data

Results flagged for a closer look

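The response to 5-FU of 7 of the 42 genes differed between *KO* and *WT* cells by a test of the difference itself (edgeR, FDR < 0.05 and a fold change above 1.5). It was higher in *KO* cells for 2 (4.76%, next to 3.42% of all genes) and lower for 5 (11.9%, next to 6.66%). The difference of the log2 responses, *KO* minus *WT*, was -1.663 for *KRT80*, -0.7597 for *JUP*, -0.7077 for *TJP3*, -0.648 for *SPINT1* and -0.5872 for *CGN*, and 0.7074 for *MARVELD3* and 0.905 for *OVOL1*. The response of *KRT80*, *JUP* and *CGN* was upward in both genotypes and smaller in *KO* cells. *TJP3* and *SPINT1* were higher with 5-FU in *WT* (0.17 ± 0.07, FDR = 0.0453 and 0.52 ± 0.058, FDR = 1.09e-06) and lower in *KO* cells (-0.54 ± 0.066, FDR = 2.74e-06 and -0.13 ± 0.053, FDR = 0.0425), all below a fold change of 1.5. With RUVg, the differences of *TJP3*, *JUP*, *CGN* and *SPINT1* were not called (-0.47, -0.56, -0.46 and -0.48), and those of *TJP3*, *CGN* and *SPINT1* were not called without replicate 2 of the *WT* cells with 5-FU. *MARVELD3* rose in both genotypes and more in *KO* cells. For *OVOL1*, the levels of both genotypes with 5-FU overlapped (24.8 ± 1.33 CPM in 2 *WT* and 24.1 ± 0.974 CPM in 3 *KO* libraries, SD), and the difference lay in the level with DMSO. For *KRT80*, the levels with DMSO overlapped, and the difference lay in the level with 5-FU.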

How the results depend on the processing

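Of the 49 called values of single genes, 46 kept direction and call with TMM factors, 45 without a filter, 44 in DESeq2 and 32 with the fold change of 1.5 inside the test. With the stricter filter of at least 20 counts in every library, *CLDN1* could not be tested and the 46 others kept theirs. Leaving out 1 library at a time ended the call of 18 of 539 called values, where a state left with 1 library was assumed to vary like the others. No scaling moved the median of all genes by more than 0.1.

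The counts of genes passing changed as follows. Without a minimum fold change, 12 genes were higher and 12 lower in *KO* than in *WT* cells with DMSO, 6 and 22 with 5-FU, 26 higher and 4 lower with 5-FU in *WT* cells, 20 and 11 in *KO* cells, and 17 lower in the interaction. The 2 genes higher in *KO* cells with 5-FU became 1 without a filter, with the stricter filter and with RUVg, and 0 with the fold change inside the test (edgeR, 0 at an unadjusted p below 0.05). The 2 lower with 5-FU in *KO* cells became 1 with TMM factors, without a filter, with the fold change inside the test and in DESeq2, and 0 with RUVg. The 2 higher in the interaction became 0 and the 5 lower became 1 with the fold change inside the test, and the 5 became 1 with RUVg and 3 in DESeq2. With RUVg, 0 genes were higher with 5-FU in *WT* and in *KO* cells, and the response had the opposite sign for *CGN* (-0.1381), *JUP* (-0.5634), *KRT19* (-0.0351) and *ESRP2* (-1.145) in *WT* cells and for *PARD3* (0.3754), *DSC2* (0.1651) and *KRT19* (-0.4026) in *KO* cells. The RUVg factor lay by 98.2% between treatments, so that the responses to 5-FU were not tested by it. For the others the cause was not tested.

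Leaving out 1 library gave 1 to 2 genes higher and 5 to 5 lower in *KO* cells with DMSO, 1 to 2 and 8 to 12 with 5-FU, 12 to 13 higher and 0 to 1 lower with 5-FU in *WT* cells, 11 to 12 and 1 to 2 in *KO* cells, and 2 to 2 higher and 2 to 8 lower in the interaction.

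With the replicate number as a block, 1 gene was higher in *KO* cells with 5-FU in place of 2, since *CLDN1* was no longer called (FDR = 0.0723), and the replicate block changed no other call. The numbers were not taken to pair the samples, since same-numbered libraries of different states did not deviate together (correlations of their deviations from the state means -0.091 to 0.078 over 15 pairs, and -0.15 to 0.15 over the 30 other pairs). Depth limited the values of *CLDN1* most, with at most 58 counts per library.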

Other observations

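Most of the other keratins measured were higher with 5-FU. Of 16 further keratin genes 11 were tested, of which 8 were higher with 5-FU in *WT* cells (18.5% of all genes were) and 6 in *KO* cells (13.3% of all genes). With DMSO, 1 was higher and 1 lower in *KO* than in *WT* cells (9.1% and 4.97% of all genes), and with 5-FU 7 of the 11 were lower (10.6% of all genes). In the interaction 5 were lower (6.66% of all genes), namely *KRT81* (-3.18 ± 0.27, FDR = 6.96e-07), *KRT83* (-3.72 ± 1.17, FDR = 0.0282), *KRT16* (-1.86 ± 0.51, FDR = 0.0135), *KRT7* (-1.66 ± 0.21, FDR = 2.94e-05) and *KRT15* (-0.65 ± 0.094, FDR = 0.00012). *KRT81*, a hair keratin, was at 1.39 ± 0.620 CPM in *WT* and 3.21 ± 0.541 CPM in *KO* cells with DMSO (SD, n = 3 each) and at 33.9 ± 0.376 CPM (n = 2) and 8.35 ± 0.311 CPM (n = 3) with 5-FU. Its values and those of *KRT83* are uncertain, since near-identical copies of these genes can share reads. *KRT15*, a keratin of basal cells, rose from 26.5 to 158 CPM in *WT* and from 27.4 to 103 CPM in *KO* cells. *KRT13* was lower in *KO* cells with DMSO (-1.67 ± 0.26, FDR = 6.75e-05).

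Of 9 genes of surface proteases other than matriptase 8 were tested, of which 7 were higher with 5-FU in *WT* cells (18.5% of all genes) and 5 in *KO* cells (13.3%). In *KO* cells with DMSO 3 were lower (4.97% of all genes), namely *TMPRSS4* (0.276 ± 0.131 as against 2.5 ± 0.488 CPM, SD, n = 3 each; -3.12 ± 0.27, FDR = 1.07e-07), *KLK6* (-0.87 ± 0.067, FDR = 3.48e-08) and *KLK10* (-0.85 ± 0.088, FDR = 1.02e-06). *PRSS8*, the gene of the prostasin protease that acts together with matriptase, rose with 5-FU in *WT* cells (0.67 ± 0.072, FDR = 6.85e-07), and its response was lower in *KO* cells (-0.60 ± 0.10, FDR = 0.000401), as the only 1 of the 8 in the interaction (6.66% of all genes).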
